A study of Mus musculus with 9 samples.

Results

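The 8 genes described here, *Obox1*, *Obox2*, *Obox3*, *Obox5*, *Obox6*, *Crxos*, *Otx1* and *Otx2*, are homeobox genes of the oocyte and the early embryo. They were picked by gene symbol and make up 8 of the 55335 entries in each library. Transcripts were measured in pools of 8-cell ICR mouse embryos that had been injected as zygotes with siRNA. The control group was given nontargeting siRNA, the MFN1-KD group siRNA against *Mfn1*, which encodes a mitochondrial fusion protein, and the H3.3-KD group siRNA against *H3f3a* and *H3f3b*, which encode the histone variant H3.3. There were 3 libraries in each of the 3 groups, and the sample labels give 5 to 10 embryos per pool. Levels are given in FPKM, a measure corrected for library size and gene length, so that different genes can be set side by side.

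Homeobox genes encode transcription factors that bind DNA through the homeodomain, a helical fold whose recognition helix lies in the major groove. Obox genes form a rodent cluster that is expressed in oocytes and at genome activation, whereas OTX1 and OTX2 are paired-like factors best known from the head and brain, with OTX2 also acting in the epiblast. Both kinds of homeodomain carry a lysine at position 50, a residue that favours DNA sites ending in CC, such as TAATCC. *Crxos* lies head to head with *Crx*, the homeobox gene of photoreceptors, and its transcripts are abundant in cleavage-stage embryos.

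The targeted genes were low in their own libraries. *Mfn1* was at 1.15 to 9.54 FPKM in MFN1-KD and 22.6 to 51.6 FPKM in control. *H3f3a* was at 117 to 170 FPKM in H3.3-KD and 1594 to 2110 FPKM in control, and *H3f3b* was at 171 to 311 and 2895 to 3166 FPKM. Each target also differed in the other knockdown. *Mfn1* was at 40.0 to 100 FPKM in H3.3-KD, which overlaps control. In MFN1-KD *H3f3a* was at 1288 to 1371 FPKM and *H3f3b* at 2695 to 2836 FPKM, both below the control range. Entries above 0 numbered 21643 to 22507 in control, 23655 to 24820 in H3.3-KD and 15577 to 20842 in MFN1-KD, in which replicate 3 had the fewest. All 8 markers of cumulus cells were under 1 FPKM in every library (*Inhba* and *Fshr* at 0), as were 4 of 6 sperm markers. Tests covered the 13011 genes averaging at least 1 FPKM over the libraries. Their median log2 fold change against control was -0.08 in MFN1-KD, while H3.3-KD had 0.26. Median-ratio scaling moved the value of H3.3-KD to 0 and upper-quartile scaling moved it to -0.15, and the split of H3.3-KD calls went from 2841 higher and 1187 lower to 2116 and 1750, or 1656 and 2085. Each value is the RNA of a whole pool, so fewer expressing cells and less RNA per cell cannot be told apart.

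In the mm10 assembly (GENCODE M21 gene models), 6 of the 8 genes lie on chromosome 7. *Obox2* (ENSMUSG00000074369.12, chr7:15388721-15398545, plus strand) lies within the span of *Obox1* (ENSMUSG00000054310.16, chr7:15388948-15556866, plus strand), apart from its first bases. *Obox3* (ENSMUSG00000066772.12, chr7:15479825-15639902, minus strand), *Obox5* (ENSMUSG00000074366.9, chr7:15750131-15759800, plus strand), *Obox6* (ENSMUSG00000041583.8, chr7:15833241-15839678, minus strand) and *Crxos* (ENSMUSG00000074365.13, chr7:15882617-15904020, plus strand) follow along the chromosome. *Otx1* (ENSMUSG00000005917.15) is at chr11:21994764-22002897 and *Otx2* (ENSMUSG00000021848.16) at chr14:48657677-48673819, both on the minus strand. For each gene the longest complete annotated reading frame was taken, frames with the homeobox run described below being preferred. These frames hold 204 (*Obox1*), 151 (*Obox2*), 335 (*Obox3*), 291 (*Obox5*), 347 (*Obox6*), 355 (*Otx1*), 297 (*Otx2*) and 246 (*Crxos*) codons.

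The homeobox itself is shown because it sets the 2 families apart and shows how near the Obox copies are to each other. It was located as the 60 codons around a run encoding tryptophan, phenylalanine or tyrosine, any residue, asparagine, any residue and arginine. This run, with room for all 60 codons around it, was present in 6 of the 8 genes and in no complete annotated frame of *Obox2* and *Crxos*. Each sequence is the coding strand, 5′ to 3′, from the GENCODE M21 transcripts. In Obox1 and Otx1 the capitals mark codon 50, the lysine codon AAG. In Obox3, Obox5 and Obox6 the capitals mark bases that differ from Obox1, and in Otx2 those that differ from Otx1.
Obox1: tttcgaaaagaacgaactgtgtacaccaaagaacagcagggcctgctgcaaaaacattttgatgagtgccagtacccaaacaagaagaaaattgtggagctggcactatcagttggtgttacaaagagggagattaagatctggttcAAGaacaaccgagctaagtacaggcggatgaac
Obox3: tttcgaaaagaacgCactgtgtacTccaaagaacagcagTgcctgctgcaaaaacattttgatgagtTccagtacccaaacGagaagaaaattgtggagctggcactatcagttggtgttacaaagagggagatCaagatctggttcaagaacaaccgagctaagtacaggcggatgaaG
Obox5: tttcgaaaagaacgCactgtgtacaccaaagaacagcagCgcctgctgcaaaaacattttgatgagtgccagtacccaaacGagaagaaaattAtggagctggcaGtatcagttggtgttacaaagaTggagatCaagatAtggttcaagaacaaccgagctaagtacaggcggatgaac
Obox6: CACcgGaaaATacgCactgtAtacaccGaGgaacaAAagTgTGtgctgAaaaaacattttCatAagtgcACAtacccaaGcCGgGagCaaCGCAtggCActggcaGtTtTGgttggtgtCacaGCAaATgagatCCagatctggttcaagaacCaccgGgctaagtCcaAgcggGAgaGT
Otx1: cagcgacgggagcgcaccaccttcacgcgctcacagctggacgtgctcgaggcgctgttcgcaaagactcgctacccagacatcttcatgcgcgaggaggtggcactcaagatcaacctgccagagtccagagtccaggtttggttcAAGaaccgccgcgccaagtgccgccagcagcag
Otx2: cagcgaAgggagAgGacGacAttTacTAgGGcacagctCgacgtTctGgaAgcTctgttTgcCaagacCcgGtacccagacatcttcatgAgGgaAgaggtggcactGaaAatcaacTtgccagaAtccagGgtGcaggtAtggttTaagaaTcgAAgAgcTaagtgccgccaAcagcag
Codon 50 is AAG in all 6. Of the 180 bases, *Obox3* differs from *Obox1* at 7, *Obox5* at 8 and *Obox6* at 52, and *Otx2* differs from *Otx1* at 36. The *Obox3* and *Obox5* homeoboxes are thus 96.1% and 95.6% identical to that of *Obox1*, *Obox6* is 71.1% identical, and identity between any Obox and any Otx homeobox is 45.6% to 52.2%.

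How near these copies are bears on how well each can be measured. Of all stretches of 100 bases in its longest transcript, 40.9% in *Obox1* also occur in *Obox2*, and 42.5% in *Obox2* also occur in *Obox1*. In *Obox3*, 12% of such stretches occur in another gene, mostly in the pseudogene *Obox3-ps3* (10.6%), against 0.115% in *Obox5* (shared with *Obox7*) and 4.01% in *Crxos*. *Obox6*, *Otx1* and *Otx2* share none. How fragments that match several genes, and the strand, were counted is not given in the sources used here, so the values of *Obox1*, *Obox2* and *Obox3* are uncertain, and overlapping models on opposite strands (*Obox1* and *Obox3*) may not be separated.

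RefSeq promoter windows (GRCm38.p6, 250 bases before to 50 after a start) were given for 6 of the 8 genes. The windows of *Obox1*, *Obox2*, *Obox3* and *Obox5* share a stretch of 25 bases, shown because it marks the copied part of the family.
Shared stretch: gtgagaattaaggatttgaatattg
Its first base lies 98 bases before the RefSeq start in *Obox1*, 1 before in *Obox2*, 109 before in *Obox3* and 110 before in *Obox5*. RefSeq and GENCODE starts differ. The *Obox1* window (chr7:15547007-15547306) lies inside the GENCODE span of *Obox1*, far from its first base. Of 32851 windows, 5 hold it, the other one being that of *Obox7*. The 6 letters TAATCC, searched on both strands, occur in the *Obox3* window (168 bases before the start) and in 1 of 4 *Otx2* windows (211 bases before), but not in these windows of *Obox1*, *Obox2*, *Obox5* or *Crxos*. They occur in 7.06% of all windows.

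In control embryos the 8 genes spanned the whole range of expression. *Crxos* was at 10930 ± 2546 FPKM (mean ± SD, n = 3) and ranked 12 to 16 from the top among all entries of its library. *Obox6* was at 1162 ± 125 FPKM and ranked 192 to 210. *Obox5* followed at 4.98 ± 1.19 FPKM, then *Obox1* at 1.81 ± 0.545 FPKM, *Obox3* at 0.957 ± 0.648 FPKM, *Otx2* at 0.89 ± 0.41 FPKM, *Obox2* at 0.887 ± 0.0416 FPKM and *Otx1* at 0.17 ± 0.0954 FPKM. The ranges of *Crxos*, *Obox6* and *Obox5* did not overlap each other, whereas that of *Obox1* overlapped that of *Obox3*, and those of *Otx2* and *Obox2* lay within that of *Obox3*. *Otx1* lay below all of them. *Otx1* and *Otx2* had a mean under 1 FPKM over the 9 libraries and were not in the fit.

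**Figure D1:**
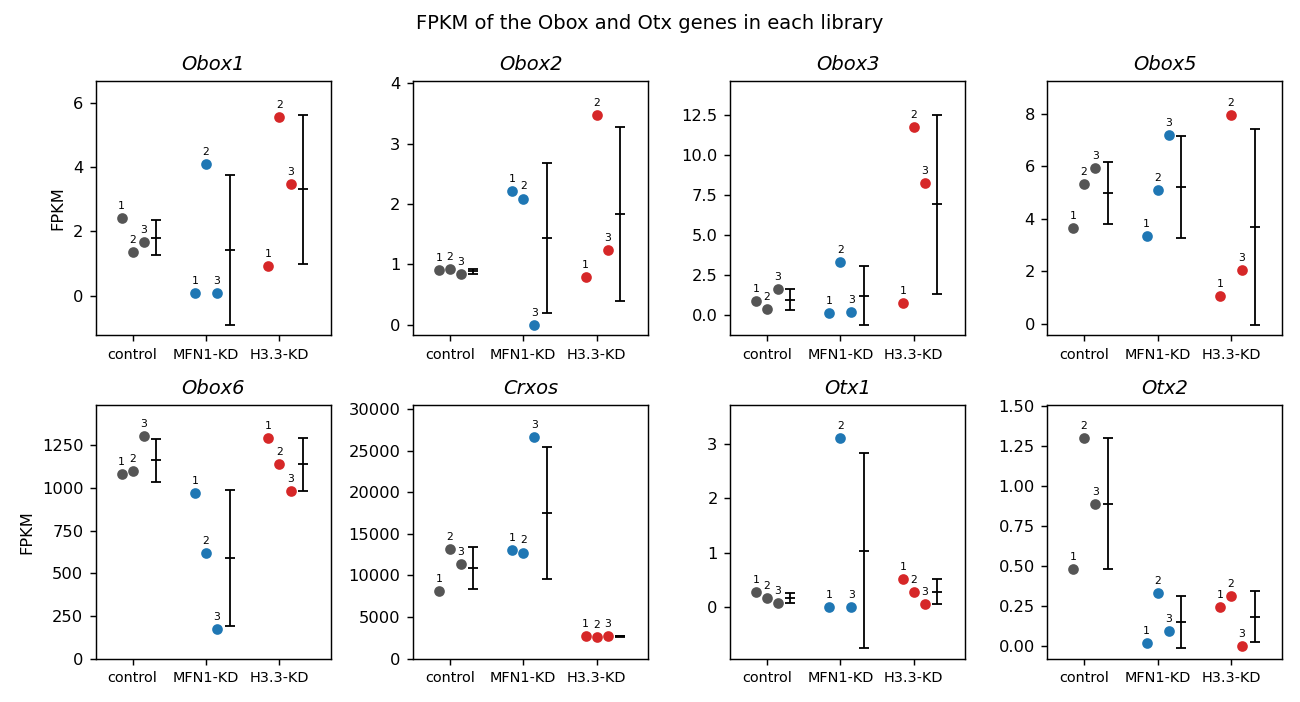
FPKM of the 8 genes (linear axes, a scale for each gene) in the 3 control, 3 MFN1-KD and 3 H3.3-KD libraries, with the replicate number over each point and the mean ± SD beside each group. *Crxos* in H3.3-KD (2656 to 2776 FPKM) lies below all other libraries, *Obox6* is low in MFN1-KD replicates 2 and 3, and *Obox3* is high in H3.3-KD replicates 2 and 3.

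H3.3-KD was compared with control to ask how these genes respond to loss of H3.3. *Crxos*, counted here among the homeobox genes although the homeobox run was not found in its frames, fell to 25.0% of its control level. It was at 8189, 13222 and 11369 FPKM in control and at 2752, 2656 and 2776 FPKM in H3.3-KD. All H3.3-KD libraries lay below the lowest control library, and they differed among themselves by little. The log2 fold change was -1.97 ± 0.28 (SE, 95% interval -2.59 to -1.36; limma, adjusted p = 0.000701). Within the libraries its rank moved from 12 to 16 in control to 31 to 49. It was the 1 gene called of the 6 that passed the filter, while 31% of all genes tested were called and 9.12% were called lower. It was also the 1 gene past the study's threshold of more than 2-fold with an unadjusted p under 0.05, which 33.3% of all genes tested passed. Among the 1187 genes called lower, *Crxos* was number 245 by the size of its fall. The call held under all 18 alternatives, with log2 fold changes of -2.50 to -1.82 and limma adjusted p-values of 1.72e-06 to 0.00551.

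*Obox6*, an Obox gene known from pluripotent cells and the preimplantation embryo, had no detectable difference in the same libraries. It was at 1078, 1101 and 1305 FPKM in control and at 1293, 1137 and 982 FPKM in H3.3-KD. The groups overlapped, and the log2 fold change was -0.03 ± 0.49 (SE, 95% interval -1.13 to 1.06; limma, adjusted p = 0.971). The interval leaves room for about a 2-fold change either way. *Crxos* lies 42.9 kb from *Obox6*, and the ratio of their FPKM was 7.59, 12.0 and 8.71 in control against 2.13, 2.34 and 2.83 in H3.3-KD.

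The less expressed Obox genes, of a family expressed in the oocyte and the genome-activating embryo, varied strongly within the H3.3-KD group. *Obox3* was at 0.88, 0.35 and 1.64 FPKM in control and at 0.76, 11.8 and 8.23 FPKM in H3.3-KD. Replicates 2 and 3 were above all controls, while replicate 1 was among them. The log2 fold change was 1.65 ± 0.75 (SE; limma, adjusted p = 0.123), and it was 2.53 without H3.3-KD replicate 1 (limma, adjusted p = 0.0156) and 1.10 without replicate 2 (limma, adjusted p = 0.356). *Obox1* was at 2.41, 1.35 and 1.66 FPKM in control and at 0.92, 5.55 and 3.47 FPKM in H3.3-KD, in the same order of libraries, and its log2 fold change was 0.47 ± 0.64 (limma, adjusted p = 0.614). *Obox2*, at 0.9, 0.92 and 0.84 FPKM in control, was at 0.79, 3.48 and 1.23 FPKM in H3.3-KD (log2 fold change 0.47 ± 0.52; limma, adjusted p = 0.524). *Obox5* was at 3.65, 5.34 and 5.94 FPKM in control and at 1.07, 7.97 and 2.05 FPKM in H3.3-KD, with a log2 fold change of -0.62 ± 0.52 (limma, adjusted p = 0.395). In all 4 of these genes H3.3-KD replicate 2 was the highest and replicate 1 the lowest of its group, and the 95% interval was widest for *Obox3* (-0.02 to 3.32).

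*Otx2*, a factor of the epiblast and the anterior head, was listed at 0.24, 0.31 and 0 FPKM in H3.3-KD and at 0.48, 1.3 and 0.89 FPKM in control. The groups did not overlap, but every H3.3-KD value was at most 0.31 FPKM. The means of log2(FPKM + 1) differed by -0.66. An exact two-sided permutation test of mean FPKM gave p = 0.1, the smallest that 3 libraries against 3 can give. Without the filter on low values, limma gave an adjusted p of 0.115. *Otx1*, its paralog, was at 0.27, 0.16 and 0.08 FPKM in control and 0.52, 0.27 and 0.06 FPKM in H3.3-KD, which overlap (log2 difference 0.12, exact permutation p = 0.7 for mean FPKM). Of the 8 genes, *Crxos* and *Otx2* had no overlap between H3.3-KD and control. Over the 32672 entries above 0 in any library, 31% did not overlap and 9.97% were lower without overlap. *Otx2* was singled out by the study from these same libraries, so its direction here is not independent evidence.

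**Figure D2:**
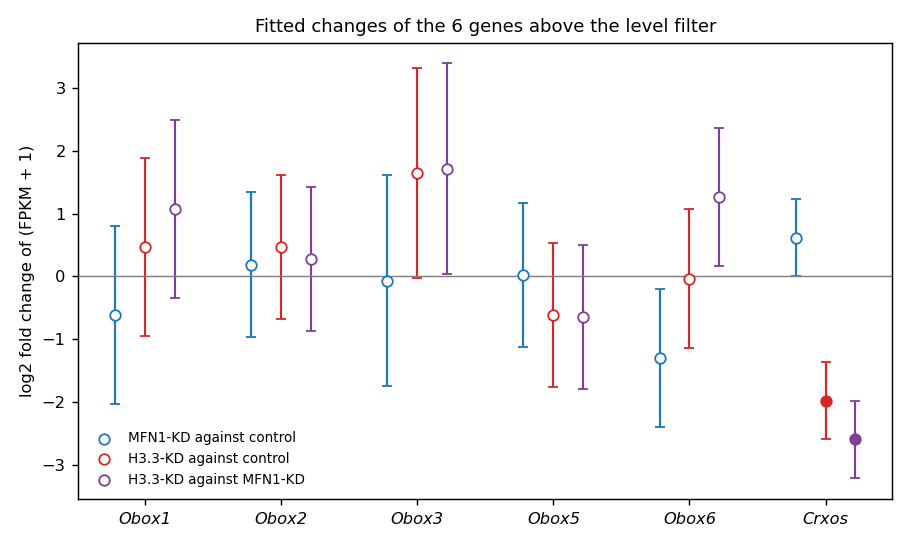
Log2 fold changes of FPKM + 1 with 95% intervals from limma for the 6 genes averaging at least 1 FPKM, in the 3 comparisons. Filled points have an adjusted p under 0.05, which holds for *Crxos* in H3.3-KD against control (-1.97) and against MFN1-KD (-2.59), and the intervals of *Obox1*, *Obox2*, *Obox3* and *Obox5* against control all include 0.

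MFN1-KD was compared with control to ask whether loss of mitofusin 1 moves the same genes. *Obox6* had the largest difference, with 970, 617 and 175 FPKM in MFN1-KD against 1078 to 1305 FPKM in control. All MFN1-KD libraries were below the lowest control, replicate 1 only slightly and replicate 3 by far. The log2 fold change was -1.29 ± 0.49 (SE, 95% interval -2.39 to -0.19; limma, unadjusted p = 0.0256, adjusted p = 0.157), which passed the study's threshold but not the adjusted one. Without MFN1-KD replicate 3 it was -0.58, and without replicate 1 it was -1.81, with limma adjusted p-values of 0.0588 to 0.379 over the 18 alternatives. Replicate 3 also had the fewest entries above 0 (15577) and the lowest *Mfn1* (1.15 FPKM), and the part of either in the *Obox6* value was not tested.

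*Crxos* was not lower in MFN1-KD. It was at 13087, 12757 and 26653 FPKM, and the first 2 of these lie within the control range. Replicate 3, again apart from the rest, was far above the others, and *Crxos* was the fifth most abundant entry in it. The log2 fold change was 0.62 ± 0.28 (SE; limma, unadjusted p = 0.0493, adjusted p = 0.214), and without replicate 3 it was 0.27. The ratio of *Crxos* to *Obox6* was 13.5, 20.7 and 152 in MFN1-KD.

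The other Obox genes in MFN1-KD differed more between libraries than between groups. *Obox1* was at 0.09, 4.1 and 0.08 FPKM, *Obox2* at 2.22, 2.09 and 0 FPKM, and *Obox3* at 0.12, 3.32 and 0.21 FPKM. Replicate 2 held most of the *Obox1* and *Obox3* signal, and *Obox2*, which shares sequence with *Obox1*, was instead as high in replicate 1. Their log2 fold changes were -0.61 ± 0.64, 0.19 ± 0.52 and -0.06 ± 0.75, and the limma adjusted p-values were 0.607, 0.87 and 0.979. *Obox5* was at 3.33, 5.1 and 7.2 FPKM, around the control values (log2 fold change 0.03 ± 0.52; limma, adjusted p = 0.991).

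*Otx2* was at 0.02, 0.33 and 0.09 FPKM in MFN1-KD, all below the lowest control value of 0.48 FPKM. The means of log2(FPKM + 1) differed by -0.71. The exact two-sided permutation test of mean FPKM gave p = 0.1, and limma without the filter gave an adjusted p of 0.273. *Otx1* was listed at 0, 3.1 and 0 FPKM, so that its log2 difference of 0.46 rests on replicate 2 and turns to -0.22 without it (exact permutation p = 1 for mean FPKM with all libraries). None of the 6 genes in the fit was called by limma at the adjusted p in MFN1-KD, where 3.35% of all genes tested were, and 2 of the 6 (*Obox6* and *Crxos*) had an unadjusted p under 0.05, as did 23.2% of all genes tested. *Obox6* alone passed the study's threshold, which 14.1% of all genes tested did. *Obox6* and *Otx2* were the 2 of the 8 genes with no overlap between the groups, against 15.3% of all entries above 0.

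**Figure D3:**
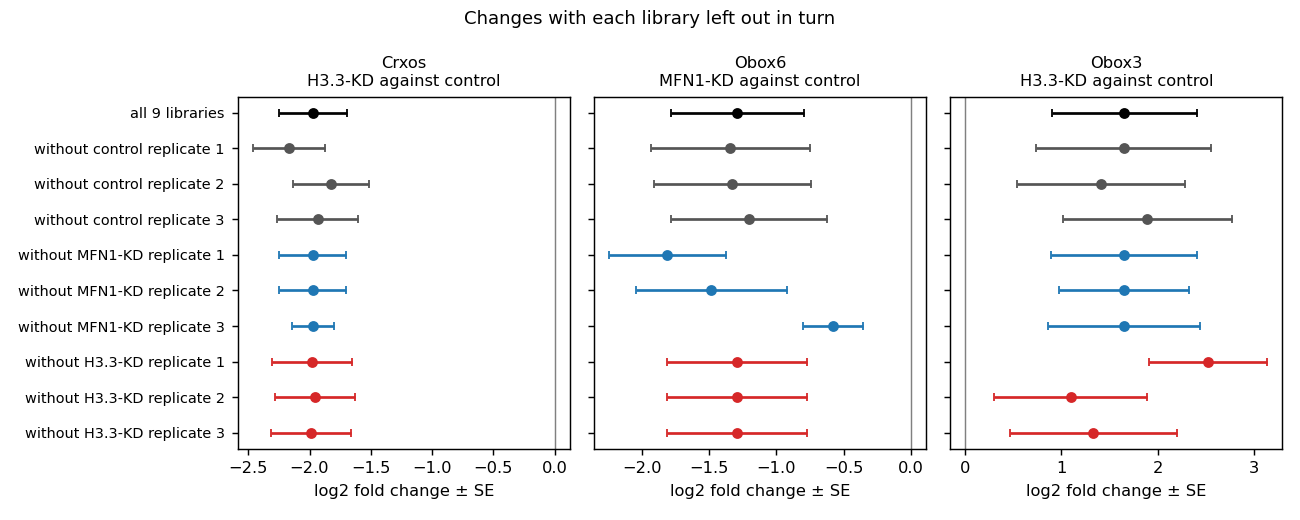
Log2 fold change ± SE from limma with all 9 libraries and with each left out in turn, for *Crxos* and *Obox3* in H3.3-KD and *Obox6* in MFN1-KD against control. *Crxos* stays between -2.17 and -1.82, *Obox6* moves from -1.29 to -0.58 without MFN1-KD replicate 3, and *Obox3* moves from 1.65 to 2.53 without H3.3-KD replicate 1.

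The direct comparison of the knockdowns tests whether their effects on these genes differ. *Crxos* was lower in H3.3-KD than in MFN1-KD, with a log2 fold change of -2.59 ± 0.28 (limma, adjusted p = 0.000121), and the call held under all 18 alternatives. Of the 6 genes, *Crxos* alone was called, while 38.6% of all genes tested were called and 11% were called lower. *Obox6* was higher in every H3.3-KD library than in any MFN1-KD library, by 1.26 ± 0.49 on the log2 scale, but this was not called (limma, adjusted p = 0.0679). Without MFN1-KD replicate 1 that difference was 1.78 (limma, adjusted p = 0.0127), without MFN1-KD replicate 3 it was 0.55 (limma, adjusted p = 0.081), and with upper-quartile scaling it was 0.67. *Obox3* had a difference of 1.72 ± 0.75 (limma, adjusted p = 0.0956), which was 2.59 without H3.3-KD replicate 1 (limma, adjusted p = 0.0112) and was smaller and not called without replicate 2 (limma, adjusted p = 0.299) or replicate 3 (1.40; limma, adjusted p = 0.245). *Obox1*, *Obox2* and *Obox5* had differences of 1.08, 0.28 and -0.65 with limma adjusted p-values of 0.207, 0.699 and 0.349. Without MFN1-KD replicate 2, where *Obox1* had been high, its difference was 1.82 and was called (limma, adjusted p = 0.02). *Crxos* and *Obox6* were the 2 of the 8 genes with no overlap between the knockdowns, against 28.9% of all entries above 0. *Otx2* differed by 0.05 and *Otx1* by -0.33 on the log2 scale (exact permutation p = 1 for mean FPKM of each). At the study's threshold *Obox3* and *Obox6* were higher and *Crxos* was lower, 3 of 6 genes against 40.1% of all genes tested.

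*Crxos* and the Obox genes share their part of chromosome 7 with *Obox8*, *Obox7*, *Crx* and many pseudogenes, 86 listed genes within chr7:14331436-15904020, of which 20 were tested. In H3.3-KD against control, 6 of the 20 were called higher (21.8% of all genes tested were) and *Crxos* alone was called lower. *Obox8*, another Obox gene, was at 149, 140 and 150 FPKM in control and at 359, 312 and 431 FPKM in H3.3-KD, without overlap (log2 fold change 1.31 ± 0.27; limma, adjusted p = 0.00493). *Crx*, whose model starts 2.65 kb from that of *Crxos* on the opposite strand, was at 1 to 2.47 FPKM in control and 0.53 to 2.71 FPKM in H3.3-KD, which overlap (log2 fold change 0.10 ± 0.48; limma, adjusted p = 0.895). The other 5 genes called higher, named after their values were seen, were the pseudogenes *Obox3-ps2*, *Obox3-ps3*, *Obox3-ps4*, *Obox3-ps5* and *Mrip-ps*, with log2 fold changes of 1.89 to 2.56. *Obox3-ps2*, *Obox3-ps3* and *Obox3-ps4* averaged at most 0.63 FPKM in control and 0.31 FPKM in MFN1-KD, so they were tested only through H3.3-KD. *Mrip-ps*, averaging 1.37 FPKM over the 9 libraries with a log2 fold change of 2.12, also passed through it. A rise was thus built into their selection, and the count of 6 is not a test of the region. *Obox8* and *Mrip-ps* stayed called under all alternatives, whereas the 4 *Obox3* pseudogenes lost the call with upper-quartile scaling and without H3.3-KD replicate 2 or 3 or any 1 control. In MFN1-KD limma called 0 of the 20, and 3 had an unadjusted p under 0.05, against 3.35% and 23.2% of all genes tested.

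**Figure D4:**
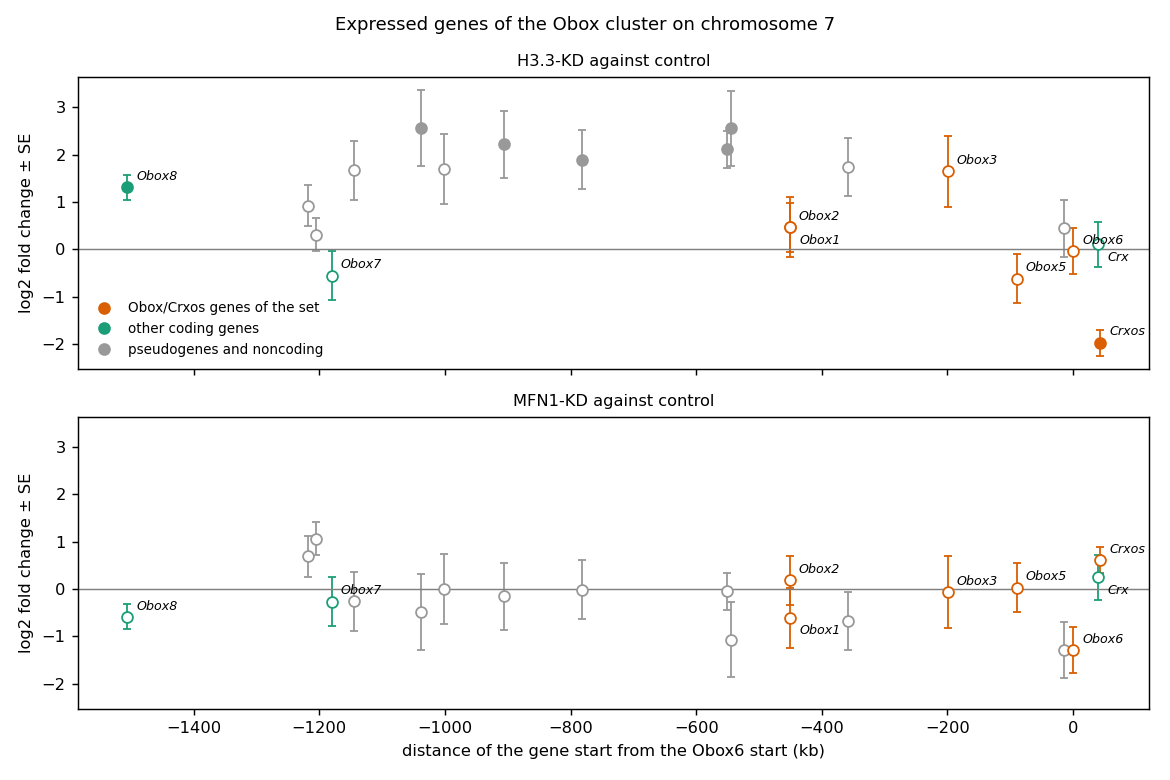
Log2 fold changes of FPKM + 1 (± SE, limma) of the 20 tested genes of the Obox region against the distance of their starts from that of *Obox6*, for both knockdowns against control. Filled points have an adjusted p under 0.05. In H3.3-KD 6 filled points lie above 0 and *Crxos* (-1.97) lies below it, and no point is filled in MFN1-KD.

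*Obox3* and its pseudogene copies, grouped after their values were seen, had much the same profile over the libraries. Of 9 entries, *Obox3* and the pseudogenes *Obox3-ps1* to *Obox3-ps8*, 8 passed the filter. In 7 of these H3.3-KD replicates 2 and 3 were higher than every other library, as they were in 14.6% of all genes tested. *Obox3-ps1*, *Obox3-ps2*, *Obox3-ps3*, *Obox3-ps4* and *Obox3-ps6* averaged at most 0.65 FPKM in control and 0.31 FPKM in MFN1-KD. They passed the filter only through H3.3-KD, which builds in the pattern, so the count is not a test of a shared profile. *Obox3-ps5* was the highest, at 2.41, 30.7 and 36.8 FPKM in H3.3-KD, 1.5, 2.39 and 1.37 FPKM in control and was listed at 0 in MFN1-KD replicates 1 and 3. *Obox3-ps7* had no such pattern and was highest in MFN1-KD, at 5.29, 5.14 and 4.12 FPKM. The 8 pseudogenes summed to 8.95, 83.4 and 90.0 FPKM in H3.3-KD and to 4.45, 4.58 and 8.01 FPKM in control. *Obox3* shares stretches of 100 bases with *Obox3-ps3*, *Obox3-ps4* and *Obox3-ps8*, sharing among the pseudogenes was not measured, and whether fragments of the pseudogenes entered the value of *Obox3* was not tested.

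**Figure D5:**
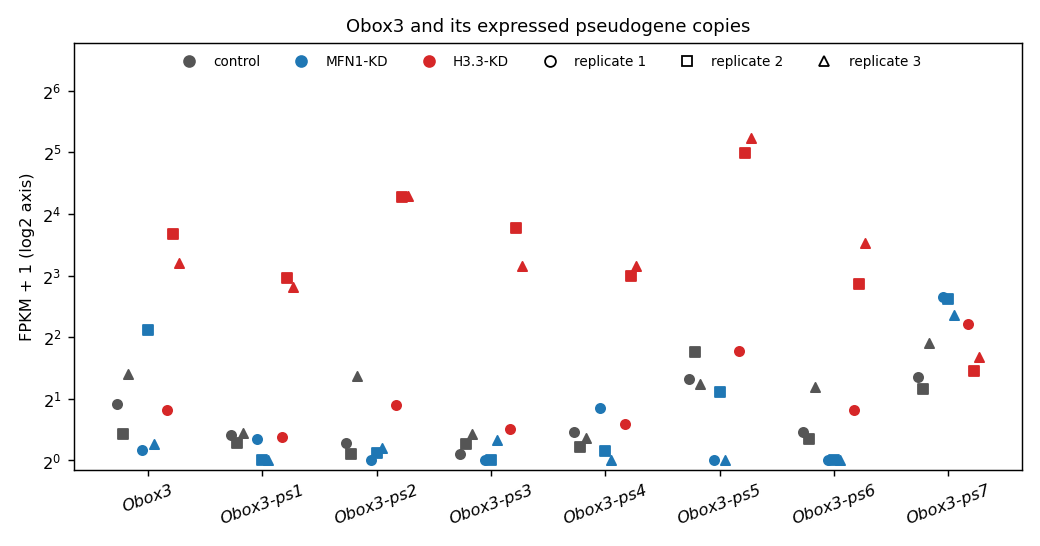
FPKM + 1 (log2 axis) of *Obox3* and the 7 of its pseudogenes averaging at least 1 FPKM, by group (colour) and replicate (shape). H3.3-KD replicates 2 and 3 (red squares and triangles) are above every other library in all but *Obox3-ps7*, with 30.7 and 36.8 FPKM in *Obox3-ps5*, and H3.3-KD replicate 1 (red circle) lies near the controls.

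The genes whose profiles over the 9 libraries were nearest to those of *Crxos* and *Otx2* were found by the root mean square difference of centred log2(FPKM + 1) among genes averaging at least 10 FPKM. For *Crxos*, whose own SD was 1.22, these were *Sag*, the rod arrestin, *mt-Cytb*, a mitochondrial subunit of complex III, and *Eny2*, a subunit of the SAGA complex, with differences of 0.229, 0.265 and 0.271 over 5932 candidates. *Sag* was at 23.8 to 47.6 FPKM in control, 42.3 to 99.4 FPKM in MFN1-KD and 9.81 to 13.6 FPKM in H3.3-KD. For *Otx2*, with an SD of 0.40, they were *Hax1*, *Atp5c1* and *Lztfl1*, with differences of 0.121, 0.124 and 0.132 over 5933 candidates. *Otx2* was at most 1.3 FPKM, so its likeness rests on small values, whereas *Hax1* was at 768 to 1067 FPKM in control and 490 to 660 FPKM in H3.3-KD.

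Genes of proteins that work with OTX2, or known to lie downstream of it, were listed for comparison. Of 20 listed, 9 were tested. In H3.3-KD against control 5 were called higher and 0 lower (limma, adjusted p under 0.05), where 21.8% of all genes tested were called higher and 9.12% lower, and the median log2 fold change was 1.46 against 0.26 for all genes. The count and that median depend on the filter, which also admits genes through high H3.3-KD values alone. Such genes build in a rise, so the count of 5 is not a test of the list. Without the filter on low values 2621 of all 32672 entries were called higher and 837 lower. Of the listed genes 19 were then tested, and 4 were called higher and 0 lower. Their median log2 fold change was then 0.20 against 0.04 for all genes. With median-ratio or upper-quartile scaling 4 were called higher and 1 lower. *Ldb1*, a LIM-domain binding cofactor, was at 3.32 to 6.58 FPKM in control and 66.6 to 81.1 FPKM in H3.3-KD (log2 fold change 3.76; limma, adjusted p = 0.000171). *Pou5f1*, which encodes the pluripotency factor OCT4, was at 5.1 to 8.9 FPKM in control and at 330, 392 and 63.1 FPKM in H3.3-KD (log2 fold change 4.65; limma, adjusted p = 0.000902). *Tle4*, a Groucho-type corepressor, had a log2 fold change of -0.76 (limma, adjusted p = 0.119). In MFN1-KD none of the 9 was called by limma and 4 had an unadjusted p under 0.05, as did 23.2% of all genes tested. *Gbx2* had the lowest p there (log2 fold change 1.38; limma, adjusted p = 0.134). *Pou5f1* went the other way, at 0.3 to 3.68 FPKM without overlap with control (-1.51; limma, adjusted p = 0.217). Once trends over GC content and length had been taken out of every library, 2 of 8 were called higher in H3.3-KD.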

How the data were processed

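RNA was measured in 9 libraries of pooled 8-cell embryos, 3 each of control, MFN1-KD and H3.3-KD, grouped by sample title. The study calls the 3 libraries of a group biological replicates, but the labels do not say whether pools came from separate injections. The p-values therefore measure only the spread between these libraries, part of which may be technical. Libraries were made by the authors with Smart-Seq2 (oligo-dT primed, PCR amplified). Reads were trimmed with cutadapt 1.16 and aligned to mm10 with STAR, per the labels and the methods. The deposited values are FPKM, computed by the authors and rounded to 2 decimals. The FPKM program, annotation and strand setting are not given in the sources used here. Counts were not used here, so depth is unknown, no counting interval is given, and the DESeq2 test of the study could not be run.

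The 13011 genes averaging 1 FPKM or more were tested on log2(FPKM + 1) with limma 3.58.1 (trend and robust options, R 4.3.3), all libraries in one fit with no covariate. On this scale the changes of low genes are understated. Calls used a Benjamini-Hochberg adjusted p under 0.05 over all genes tested, and the study's threshold (more than 2-fold, unadjusted p under 0.05) was counted too. For *Otx1* and *Otx2*, below the filter, exact two-sided permutation tests over libraries were run on mean FPKM without logarithms, 6 in all. The pipeline was tested on simulated data with known changes. Symbols occurring more than once (109) were kept as listed.

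Alternatives were a pseudocount of 0.1, no filter or a minimum mean of 10 FPKM, scaling by median ratios or upper quartiles, fits of the 6 libraries of a comparison alone, a block for the replicate number, correction of every library for GC and length trends, library weights, and each library left out in turn. The genes and all lists were chosen with earlier results of these data known. Named were the 8 genes and the 3 nearest profiles to *Otx2* and *Crxos*. From each list and comparison at most the gene of lowest p and that farthest from the list's median in the opposite direction were named. Not every gene picked by this rule is given, and some others were named after their values were seen. Homeobox and promoter sequences were read from GENCODE M21 and RefSeq with Python 3.11.15 (pandas 2.3.3, numpy 2.4.6, Biopython 1.88). Figures were drawn with matplotlib 3.10.9.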

Additional observations from a re-analysis of the deposited data

How the results depend on the processing

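Depth is unknown from FPKM, so values under 1 FPKM (*Otx1*, *Otx2* and many of *Obox1*, *Obox2* and *Obox3*) carry an unknown counting error, and no groups of 3 can reach an exact p under 0.1. The fall of *Crxos* in H3.3-KD kept its direction and its call under all 18 alternatives against both other groups. The labels do not say whether the replicate number pairs the libraries. Deviations of same-numbered libraries had correlations of -0.053 to 0.158, which cannot settle it. With the number as a replicate block, *Crxos* in H3.3-KD had an adjusted p of 0.000921 (limma), *Obox6* in MFN1-KD one of 0.151, and 2 genes in place of 1 passed the study's threshold in H3.3-KD.

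The causes of the following shifts were not tested. In MFN1-KD the number of genes past the study's threshold was 0 with library weights and 0 to 2 with each library left out, and the number called over all genes ranged from 0 (3025 at an unadjusted p under 0.05 with all libraries) to 1393 over the alternatives. In H3.3-KD 2 genes were called with library weights and 1 to 2 with libraries left out, and 2 passed the study's threshold with the GC and length trend removed and with library weights, and 1 to 2 with libraries left out. Between the knockdowns 2 were called with the GC and length trend removed and 1 to 3 with libraries left out, and 1 passed the study's threshold with median-ratio scaling, upper-quartile scaling, only the 6 libraries or library weights, and 1 to 4 with libraries left out. Calls over all genes were 2432 to 6980 in H3.3-KD and 2980 to 5278 between the knockdowns.

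Among the 8 genes, directions turned in the following log2 fold changes, none of which was called. In MFN1-KD that of *Obox2* was -0.31 with a pseudocount of 0.1 and -0.10 to 0.74 with libraries left out, that of *Obox3* was 0.13 with library weights and -0.70 to 0.28 with libraries left out, and that of *Obox5* was -0.26 and -0.20 to 0.26. *Obox6* in H3.3-KD was 0.35 with the GC and length trend removed, 0.027 with library weights and -0.13 to 0.067 with libraries left out. With libraries left out, *Obox2* between the knockdowns was -0.27 to 0.57, *Otx2* was -0.035 to 0.16, and *Otx1* was -0.22 to 0.79 in MFN1-KD, -0.0089 to 0.25 in H3.3-KD and -0.67 to 0.34 between them. Fits with a mean of at least 10 FPKM hold *Obox6* and *Crxos* alone, and *Otx1* and *Otx2* have values without the filter and with libraries left out only.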

Other observations

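Other homeobox genes of the oocyte, the early embryo and the paired-like class were called at shares near those of all genes in H3.3-KD. Of 25 listed, 14 were tested, and against control 4 were called higher and 1 lower by limma (adjusted p under 0.05), where 21.8% and 9.12% of all genes tested were, with a median log2 fold change of -0.07 against 0.26 for all genes. *Obox8* rose (1.31, adjusted p = 0.00493), as did *Gsc*, the organizer homeobox gene (1.87, adjusted p = 0.0414). *Pitx1*, of hindlimb and pituitary, was at 1.43 (adjusted p = 0.0114), *Cdx2*, of the trophectoderm, at 1.62 (adjusted p = 0.0426), and *Hesx1*, a repressor of the anterior head, fell by 1.88 on the log2 scale (adjusted p = 0.0216), all 3 named after their values were seen. *Cdx2* was at 0.06 to 0.09 FPKM in control and at most 0.06 FPKM in MFN1-KD, so it passed the filter only through H3.3-KD. *Obox8* alone was called under all alternatives. The calls of *Gsc*, *Cdx2* and *Pitx1* were lost with the GC and length trend removed, where *Pitx1* was at -0.07, as was that of *Hesx1*, and *Gsc* and *Cdx2* lost theirs under both scalings. In MFN1-KD limma called 0 of the 14, and 0 had an unadjusted p under 0.05, against 3.35% and 23.2% of all genes tested.

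Of the 24 genome activation genes tested, 9 were called higher and 0 lower by limma in H3.3-KD, where 21.8% and 9.12% of all genes tested were, and the median log2 fold change was 1.61 against 0.26 for all genes. *Klf17*, a Krüppel-like factor, was at 29.8 to 50.1 FPKM in control and 195 to 401 FPKM in H3.3-KD (2.89, adjusted p = 0.000199), whereas *Dppa4*, a chromatin protein of pluripotent cells, was at 0.00. In MFN1-KD, where 3.35% of all genes tested were called, the 1 call of 24 was *Tdpoz5*, of a family with TRAF and BTB domains. It was at 4.11 to 9.9 FPKM against 26.6 to 58.4 FPKM in control (-2.37, adjusted p = 0.0359) and was called under 8 of 18 alternatives.

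The 16 tested oocyte markers were called in both directions in H3.3-KD, 2 higher and 2 lower by limma. Over all genes tested, 21.8% were called higher and 9.12% lower. *Dazl* (2.68, adjusted p = 0.00299) and *Omt2a* (-1.54, adjusted p = 0.0126), named after their values were seen, were 1 call in each direction. *Gpr3*, the receptor that holds meiotic arrest, rose by 3.27 on the log2 scale (adjusted p = 0.000406) and *Omt2b* fell by 2.68 (adjusted p = 0.000737), both called under all alternatives. *Gpr3* was at 0.6 to 0.9 FPKM in control, 0.32 to 0.93 FPKM in MFN1-KD and 8.67 to 27.4 FPKM in H3.3-KD. It thus passed the filter only through H3.3-KD. Summed over the 18 oocyte markers, FPKM was 465 to 676 in control, 213 to 537 in MFN1-KD and 148 to 243 in H3.3-KD. *Omt2b* made up much of this sum, at 282 to 439 FPKM in control, 112 to 348 FPKM in MFN1-KD and 43.1 to 63.6 FPKM in H3.3-KD. The median log2 fold change of the tested oocyte markers in H3.3-KD against control was 0.02, so the sum does not show a general fall. Summed over the 8 embryo markers, FPKM was 21060 to 28010 in control, 28800 to 34990 in MFN1-KD and 10480 to 14130 in H3.3-KD. Of these 8, limma called 2 higher and 2 lower in H3.3-KD, against 21.8% and 9.12% of all genes tested. In H3.3-KD most of the embryo sum came from *Dppa3* (6244 to 7699 FPKM) and *Dppa5a* (4085 to 5944 FPKM), while *Pou5f1* rose (log2 fold change 4.65, adjusted p = 0.000902). *Crxos* was low in the same H3.3-KD libraries as both sums, and the part of embryo stage in its level was not tested. In MFN1-KD 1 oocyte marker, *Dazl*, was called higher (2.40, adjusted p = 0.0382, called under 6 of 18 alternatives), where 3.35% of all genes tested were called. There limma called 0 of the 8 embryo markers, of which 3 had an unadjusted p under 0.05, as did 23.2% of all genes tested. Of these markers *Krt18* had the lowest p (-2.19, adjusted p = 0.059), and *Tfap2c* went the other way (0.84, adjusted p = 0.109).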
